A study of Homo sapiens with 4 samples.

Results

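The collagen chain genes were taken as every protein-coding row of the authors' deposited table whose symbol is COL, a number, A and a number, which gave 43 genes of 34675 rows. By its labels the series compares stable lines of MDA-MB-231, an established triple-negative breast carcinoma line of mesenchymal type that came from a pleural effusion. The vector line carried the pcDNA plasmid alone and the LKB1 line carried pcDNA with FLAG-tagged wildtype LKB1, a serine/threonine kinase encoded by STK11, and each gave 2 RNA libraries from cells on plastic dishes in medium with serum. The labels give both groups as stable lines of 1 parent line, but a check described below put 1 group at odds with that line. They do not say whether a line is a clone or a pool, or whether its 2 libraries came from separate cultures. The p-values therefore speak only of the spread among these 4 libraries, and that spread may be technical.

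Collagens are secreted as trimers of alpha chains wound into a triple helix, and the chain genes fall into classes by the structure the trimers build. Fibrillar collagens form the banded fibrils of connective tissue, type IV collagens the network of basement membranes, and type VI collagens the beaded filaments beside cells. FACITs, the fibril-associated collagens with interrupted triple helices, sit on the surface of fibrils. Carcinoma cells make part of the collagen around them, and a trimer built of different chains holds them in fixed proportions.

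The authors' deposited table holds 1 comparison with no value per library. It was read as LKB1 line over vector line because STK11 (1321 reads with vector, 2112 with LKB1) had a fold of 1.54 there (adjusted p = 0.00105 in the authors' deposited table), so every direction here rests on that reading. Read totals, each summed over the 2 libraries of a line, were recovered from the deposited folds, and the LKB1 line had 1.04 times the depth of the vector line. Over the rows recovered the totals were 11643367 reads with vector and 12276419 with LKB1. Of the markers of the named line, CD44 had 9732 and 12579 reads and did not pass, VIM did not pass (log2 -0.26) and AXL rose (log2 0.42, adjusted p = 0.0387) in the authors' deposited table. Hormone receptor genes ESR1 and PGR had at most 12 reads in either line, and ERBB2, the receptor gene that is not amplified in triple-negative tumours, had 1104 and 1364 and did not pass. A check of sample identity found that 1 group of the 2 was at odds with the cell line named in the labels, so a difference between cell stocks and an effect of LKB1 cannot be told apart in any result below. Of 6 endothelial markers measured 6 were lower with LKB1, where 7.32% of protein-coding rows with at least 40 reads over both lines were lower. Each of the 6 had that depth, and together they had 1899 reads with vector and 268 with LKB1. PECAM1, also listed, had no value. The 7 fibroblast markers had 5517 and 12302 reads in sum, nearly all from S100A4, which carcinoma cells also express and which rose from 5335 to 12129 reads (log2 1.13, adjusted p = 3.64e-11 in the authors' deposited table). For the other 6 the sum was 182 and 173 reads, 0 of these genes passed, and DCN and THY1 were at 0 in both lines. Leukocyte markers had 771 and 347 reads over 4 genes, of which LCP1 fell and CD14 rose. Chondrocyte markers had 2106 and 2194 reads over 4 genes, nearly all from SOX9, and 0 passed. The part of these markers in the collagen results was not tested. By their titles, 1 LKB1 library carries another run tag than the other 3 libraries, and without values per library its weight cannot be seen. The titles also tag the vector libraries mRNA and the LKB1 libraries fmRNA, a difference that cannot be told apart from the group.

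Collagen chain genes moved in both directions in the LKB1 line, and so did chains of the same collagen type in the fibrillar and beaded-filament classes. COL5A2, COL3A1, COL6A3 and COL1A1 fell, and COL6A1, COL5A1, COL6A2 and COL12A1 rose, at an adjusted p under 0.05 in the authors' deposited table. That is 8 of 43 members (18.6%), with 5.79% called over all rows and 9.7% over protein-coding rows. The 4 lower members were 9.3% of the 43, where 3.24% of all rows and 5.6% of protein-coding rows were lower. The 4 higher members were also 9.3%, where 2.55% of all rows and 4.1% of protein-coding rows were higher. A total of 40 reads over both lines was reached by 25 members, which include all 8 that were called, and a filter on such totals favours genes that are high in either line. Among rows with at least 40 reads 12.6% were called, 6.88% lower and 5.73% higher. Among protein-coding rows of that depth the share was 13.2%, with 7.32% lower and 5.87% higher. The members to set beside these shares are the 25 of that depth, of which 8 were called, 4 lower and 4 higher.

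**Figure D1:**
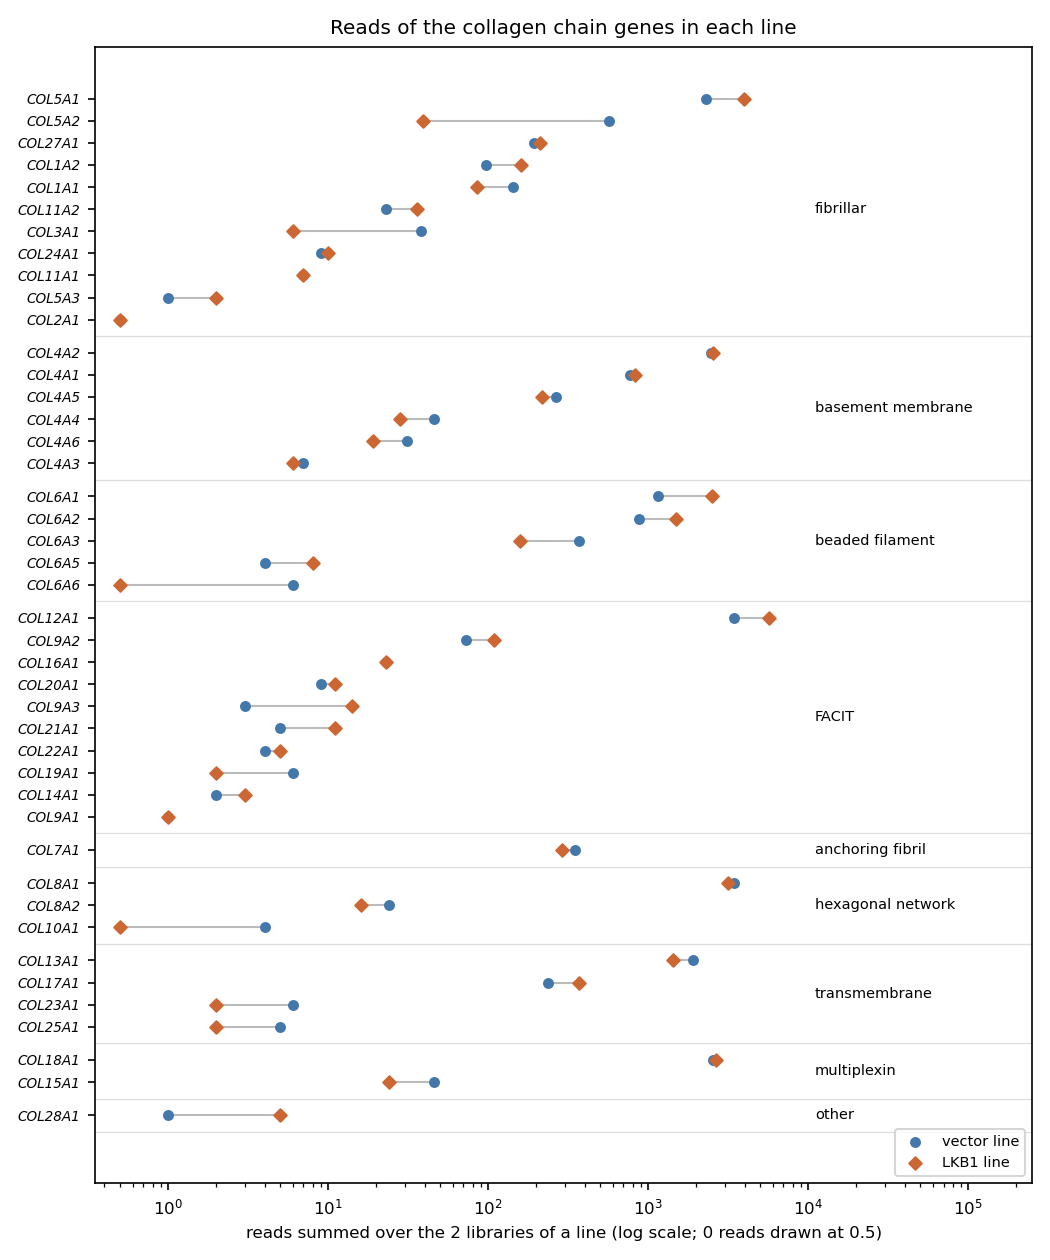
Reads of each of the 43 collagen chain genes, grouped by class, on a log axis: circles are the sum over the 2 vector libraries, diamonds the sum over the 2 LKB1 libraries, and 0 reads are drawn at 0.5. COL5A2 shows the widest separation among genes with many reads, 565 against 39, while the paired points of COL4A1, COL4A2 and COL18A1 nearly coincide.

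Per transcript length, the most abundant chains in the vector line were COL8A1 (603 reads per kb), a short-chain collagen of hexagonal networks, and COL13A1 (601 reads per kb), a transmembrane collagen of adhesion sites. COL18A1, COL4A2 and COL12A1 followed at 427, 379 and 293 reads per kb. In the LKB1 line COL6A1 was first at 594 reads per kb, ahead of COL8A1 at 555 and COL12A1 at 483. COL5A2 went from the rank of 10 in the vector line (79.8 reads per kb) to 20 in the LKB1 line (5.51 reads per kb). The chains COL1A1, COL1A2 and COL3A1, which lead in fibroblasts, were minor here, at 21.3, 17.9 and 6.86 reads per kb in the vector line. All members together had 21485 reads with vector and 26100 with LKB1, a ratio of 1.17 at equal depth.

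A feature of sequence that the choice of genes did not use is the match to the microRNA family miR-29, a known repressor of matrix genes. Its members share the seed, bases 2 to 8, shown in capitals in the mature sequences from RefSeq (GRCh38.p14) because the target matches below are read against it.
hsa-miR-29a-3p: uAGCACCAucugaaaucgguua
hsa-miR-29b-3p: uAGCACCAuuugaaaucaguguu
hsa-miR-29c-3p: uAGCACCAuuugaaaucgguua
The complement of the seed, TGGTGCT on the transcript strand, was found in the 3' untranslated region of 27 of 43 members (62.8%), using 1 GENCODE 29 transcript a gene. Over all 18701 protein-coding genes with such a region the share was 12.9%, and the median length of the region was 1037 bases in members and 894 over all genes. By class the match was present in 10 of 11 fibrillar, 6 of 6 basement membrane, 3 of 5 beaded-filament and 5 of 10 FACIT genes. It was present in 4 of the 4 members that fell and in 2 of the 4 that rose, namely COL5A1, with 4 matches, and COL6A2. COL6A1 and COL12A1, which also rose, had no such letters in these regions. The matches of the members that fell, and 1 of those of COL5A1, are printed with the match in capitals.
COL5A2 (chr2:189032867-189032892, minus strand, GRCh38): ttcctttaatgaTGGTGCTaaaattc
COL3A1 (chr2:189012004-189012029, plus strand, GRCh38): aaaatgtctcaaTGGTGCTataataa
COL3A1 (chr2:189012444-189012469, plus strand, GRCh38): agacgcatgttaTGGTGCTaatgtac
COL6A3 (chr2:237324595-237324620, minus strand, GRCh38): gacctatcagtaTGGTGCTaatgtgt
COL1A1 (chr17:50184566-50184591, minus strand, GRCh38): ggagggaatcacTGGTGCTatagaaa
COL5A1 (chr9:134843330-134843355, plus strand, GRCh38): ctcaatgaaaatTGGTGCTtattttt
The microRNA genes themselves gave little to compare. MIR29A had 1 read with vector and 7 with LKB1 (ratio 6.73, counting interval 0.865 to 303), with an adjusted p of 0.606 in the authors' deposited table. MIR29B1, MIR29B2 and MIR29C had 0 reads in both lines, and whether the reads of MIR29A came from its precursor is not known.

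The fibrillar class held the largest fold among the called members and went both ways, with 3 of 11 members lower and 1 higher. Over protein-coding rows 5.6% were lower and 4.1% higher. At 40 reads or more, reached by 7 of the 11, these shares were 7.32% and 5.87%. COL5A2 (ENSG00000204262.7, chromosome 2, 189896622 to 190044605, minus strand, hg19) encodes a chain of type V collagen, which starts and limits the width of type I fibrils. It had 565 reads with vector and 39 with LKB1, a 15-fold fall in the authors' deposited table (log2 -3.90 with a standard error of 0.28 implied by the deposited p, adjusted p = 1.84e-57). COL5A1 (ENSG00000130635.11, chromosome 9, 137533620 to 137736686, plus strand, hg19) encodes its partner chain. Its reads went the other way, from 2302 to 3946, a 1.65-fold rise in the authors' deposited table (log2 0.72, implied standard error 0.14, adjusted p = 2.62e-05). COL3A1 (ENSG00000168542.8, chromosome 2, 189839046 to 189877472, plus strand, hg19), the single chain of type III collagen, had 38 reads with vector and 6 with LKB1. Its log2 fold was -2.67 in the authors' deposited table (implied standard error 0.66, adjusted p = 0.000144), on the fewest reads of any called member.

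COL1A1 (ENSG00000108821.8, chromosome 17, 48260650 to 48278993, minus strand, hg19) encodes the chain that type I collagen holds in excess. It fell from 143 to 85 reads, a log2 fold of -0.80 in the authors' deposited table (implied standard error 0.24, adjusted p = 0.021), the called member nearest to the threshold. COL1A2, the other chain of type I collagen, had 97 and 160 reads and did not pass (log2 0.66, adjusted p = 0.0656 in the authors' deposited table). Among the other fibrillar genes COL27A1 had 194 and 210 reads and COL11A2 had 23 and 36, and neither passed. COL11A1, COL24A1 and COL5A3 had 19 reads or fewer over both lines, and COL2A1, the cartilage collagen, had 0. The median log2 fold of the 7 fibrillar genes with at least 40 reads was 0.06, and that of all protein-coding rows with at least 40 reads was -0.02, both taken from the authors' deposited table.

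**Figure D2:**
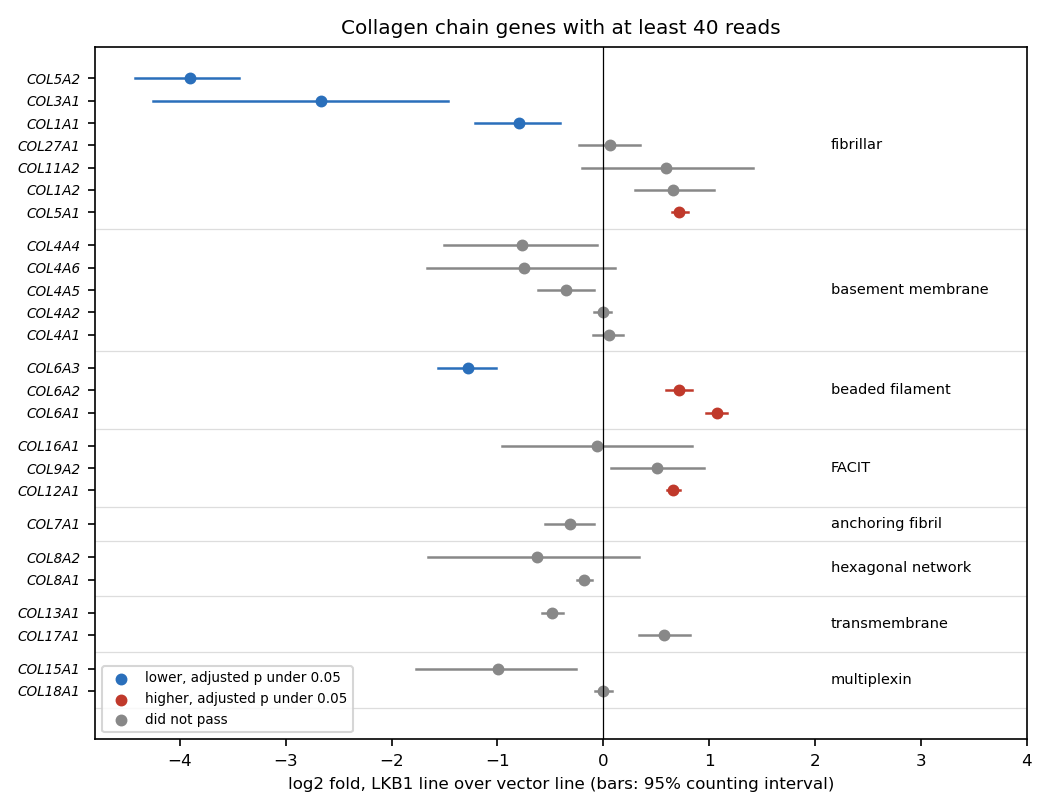
Log2 fold of the LKB1 line over the vector line for the 25 members with at least 40 reads, by class; bars are 95% exact counting intervals, which leave out variation between libraries, and colour marks the authors' call. Fibrillar and beaded-filament chains lie on both sides of 0, whereas the 5 basement membrane chains are all grey.

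The chains of type VI collagen also parted. COL6A1 (ENSG00000142156.10, chromosome 21, 47401651 to 47424964, plus strand, hg19) had 1154 reads with vector and 2517 with LKB1, a 2.10-fold rise in the authors' deposited table (log2 1.07, implied standard error 0.15, adjusted p = 4.45e-11). COL6A2 (ENSG00000142173.10, chromosome 21, 47518011 to 47552763, plus strand, hg19) rose with it, from 873 to 1494 reads (log2 0.72, implied standard error 0.15, adjusted p = 0.000177 in the authors' deposited table). COL6A3 (ENSG00000163359.10, chromosome 2, 238232646 to 238323018, minus strand, hg19), the long chain whose tail is cleaved to endotrophin, fell from 370 to 158 reads. Its log2 fold was -1.28 in the authors' deposited table (implied standard error 0.19, adjusted p = 3.86e-09). Of the alternative long chains, COL6A5 had 4 and 8 reads and COL6A6 had 6 and 0, and neither passed. Beaded-filament genes thus had 2 of 5 members higher and 1 lower, where 4.1% of protein-coding rows were higher and 5.6% lower. Only 3 of the 5 had at least 40 reads, a depth at which 5.87% were higher and 7.32% lower.

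Promoters are shown for the type VI chains that went opposite ways and have an entry in the RefSeq promoter table (GRCh38.p14), which held 31 of the 43 members. COL5A2, COL3A1, COL1A1 and COL6A1 are not among them. The 120 bases before the start are printed, with capitals marking the motifs searched on both strands, namely the TATA box TATAAA, the CCAAT box, the GC box GGGCGG, the AP-1 motif TGANTCA and the TEAD motif GGAATG.
COL6A2 (chr21:46097992-46098111, plus strand): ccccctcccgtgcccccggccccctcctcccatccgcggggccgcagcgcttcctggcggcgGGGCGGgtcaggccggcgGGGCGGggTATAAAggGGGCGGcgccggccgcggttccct
COL6A3 (chr2:237414165-237414284, minus strand): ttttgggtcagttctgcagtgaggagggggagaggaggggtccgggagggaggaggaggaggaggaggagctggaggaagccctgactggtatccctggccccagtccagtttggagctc
In the COL6A2 stretch GGGCGG stood on both sides of TATAAA, and in that of COL6A3 none of these motifs was found. None was found either in the same 120 bases of COL5A1 and COL12A1, which rose. In the longer stretch of 250 bases COL5A1 held 2 GGGCGG, COL12A1 held 1 GGGCGG and 1 GGAATG, and COL6A3 held no motif. A link of these motifs to the direction of change was not tested. In the 250 bases before the start GGGCGG was present in 58.1% of the 31 members and in 42.3% of all 27305 promoters. TATAAA was present in 16.1% and 11.1%, CCAAT in 29% and 33.0%, GGAATG in 3.2% and 11.9%, and TGANTCA in 0 of the 31 members and 6.6% of all promoters. A match describes the letters and not binding.

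Among the FACITs 1 of 10 members rose and 0 fell, where 4.1% of protein-coding rows were higher and 5.6% lower, together 9.7%. Only 3 of the 10 had at least 40 reads, a depth at which 5.87% were higher and 7.32% lower. A count of 1 does not set this class apart. COL12A1 (ENSG00000111799.16, chromosome 6, 75794042 to 75915767, minus strand, hg19), the member with the most reads over both lines together, links fibrils to the surrounding matrix. It had 3436 reads with vector and 5657 with LKB1, a 1.58-fold rise in the authors' deposited table (log2 0.66, implied standard error 0.14, adjusted p = 0.000123). COL9A2 had 73 and 108 reads (log2 0.51, adjusted p = 0.645 in the authors' deposited table) and COL16A1 had 23 in both. COL9A3 had 3 and 14 reads, at equal depth 4.49 times as many with LKB1 (counting interval 1.25 to 24.4), and did not pass (adjusted p = 0.317 in the authors' deposited table). COL9A1, COL14A1, COL19A1, COL20A1, COL21A1 and COL22A1, the other 6, had 20 reads or fewer over both lines. This class had too few reads for most of its members to show a change of small size.

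No basement membrane chain passed the test, and the most abundant ones were close to level. With 9.7% of protein-coding rows called, 0 calls among 6 chains does not set this class apart. COL4A2 had 2464 reads with vector and 2554 with LKB1, and COL4A1 had 766 and 822. Their folds were 0.997 and 1.03 in the authors' deposited table, with counting intervals of the ratio of 0.943 to 1.05 and of 0.934 to 1.14. COL4A5 had 267 and 218 reads, COL4A4 46 and 28, COL4A6 31 and 19 and COL4A3 7 and 6, all with log2 folds below 0 in the authors' deposited table. Of the 6 chains 0 had an adjusted or an unadjusted p under 0.05, and the smallest unadjusted p was 0.0685, that of COL4A4, in the authors' deposited table. With a variation between libraries of 0.1 or 0.2 assumed for every gene, 0 passed as well. COL4A1 and COL4A2 overlap at their starts in the deposited coordinates, and the counting of reads there is not known. The 2 multiplexins of basement membrane zones did not pass either. COL18A1, the precursor of endostatin, had 2530 and 2636 reads (counting interval of the ratio 0.949 to 1.06). COL15A1 had 46 and 24 reads (log2 -0.99, adjusted p = 0.348 in the authors' deposited table).

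Genes of type IV collagen lie head to head in pairs, and the bases between the starts of COL4A1 and COL4A2 are shown because they serve as promoter of both. RefSeq (GRCh38.p14) places 126 bases between them, read here in the direction of COL4A2 with the same motifs in capitals.
COL4A1-COL4A2 (chr13:110307158-110307283, plus strand): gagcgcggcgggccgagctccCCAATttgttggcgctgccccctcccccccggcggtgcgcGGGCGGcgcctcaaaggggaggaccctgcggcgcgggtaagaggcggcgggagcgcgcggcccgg
The stretch held 1 CCAAT and 1 GGGCGG. COL4A4 and COL4A3 have 418 bases between their starts, and COL4A6 and COL4A5 have 379.

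In the remaining classes no member passed. COL13A1 was nearest, with 1916 and 1430 reads (log2 -0.48, adjusted p = 0.052 in the authors' deposited table), just outside the threshold. COL17A1, a hemidesmosome collagen of epithelia, had 238 and 368 reads (log2 0.57, adjusted p = 0.101 in the authors' deposited table). COL8A1 had 3439 and 3167 reads and COL8A2 had 24 and 16. COL7A1, the anchoring fibril collagen below epithelia, had 347 and 290 reads. COL10A1, COL23A1, COL25A1 and COL28A1 had at most 8 reads over both lines. By class, summed reads at equal depth stood at 1.28 times the vector level for fibrillar, 0.98 for basement membrane, 1.67 for beaded-filament and 1.58 for FACIT genes, sums that COL5A1, COL4A2, COL6A1 and COL12A1 lead. The median log2 folds in the authors' deposited table, over members with at least 40 reads, were 0.06, -0.35, 0.72 and 0.51 for these classes in the same order, and -0.06 over the 25 members. The basement membrane median was 0.00 over its 3 members with at least 200 reads. These are descriptions with no test between classes.

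The 17 members with at least 40 reads that did not pass had log2 folds from -0.99 to 0.66 in the authors' deposited table, of which 10 were below 0 and 7 above.

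Chains that assemble into 1 trimer were compared by their reads per kb. COL5A2 stood at 0.293 of COL5A1 in the vector line and at 0.0118 in the LKB1 line, a 24.7-fold shift of the ratio. COL6A3 stood at 0.126 of COL6A1 in the vector line and at 0.0247 in the LKB1 line, a shift of 5.1-fold. COL6A2 stood at 0.926 and 0.727 of COL6A1. COL1A1 stood at 1.19 of COL1A2 in the vector line and at 0.426 in the LKB1 line, a 2.77-fold shift that sets a gene that passed against one that did not. By contrast COL4A1 stood at 0.306 and 0.316 of COL4A2, a 1.04-fold difference. These ratios are of RNA and of group totals, and they have no error over libraries. The lengths are of 1 transcript a gene, which may not be the one these cells use.

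**Figure D3:**
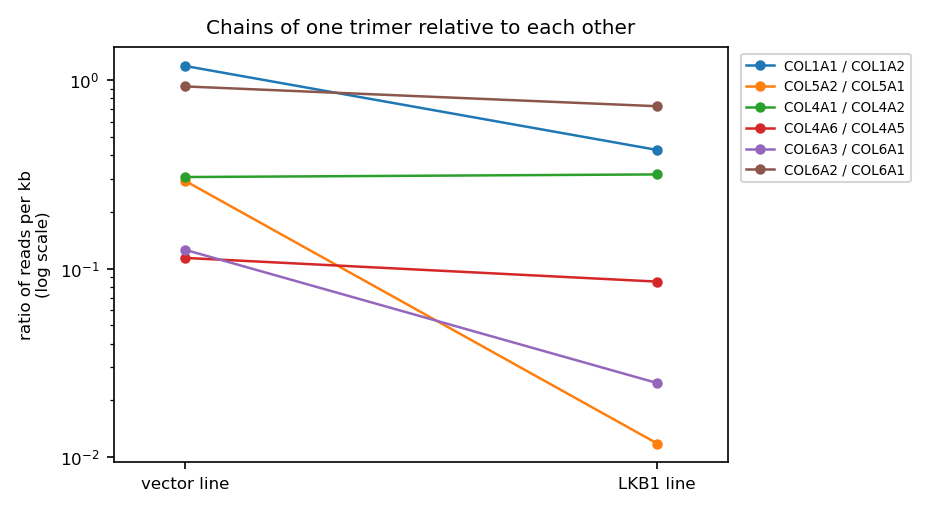
Ratio of reads per kb of a chain to that of its trimer partner, on a log axis, in the vector line (left) and the LKB1 line (right). The lines of COL5A2 over COL5A1 and of COL6A3 over COL6A1 drop steeply, from 0.293 to 0.0118 and from 0.126 to 0.0247, while COL4A1 over COL4A2 is flat.

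Several members are neighbours on a chromosome, and the rows around them were examined. COL3A1 and COL5A2 lie next to each other on chromosome 2 in convergent orientation, 19149 bases apart, and both fell. Within 3 Mb of the pair 24 other protein-coding genes had at least 40 reads, and their log2 folds in the authors' deposited table ran from -0.28 to 0.87 with a median of 0.20. Of these 0 fell and 3 rose in the authors' deposited table, among them the iron exporter SLC40A1 (log2 0.87, adjusted p = 0.0412). COL6A1 and COL6A2 lie 93046 bases apart on chromosome 21, and both rose. Of 37 neighbours of that pair 5 fell and 3 rose, at a median log2 fold of -0.15 in the authors' deposited table. Among them PCBP3 rose (log2 1.14, 67 and 154 reads), and C21orf56 (log2 -0.93, 238 and 130 reads) and the integrin gene ITGB2 (log2 -2.49, 272 and 50 reads) fell, in the authors' deposited table. Around COL4A1 and COL4A2 the median log2 fold of 17 neighbours was -0.04 in the authors' deposited table, and 1 of them, FAM155A, fell.

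**Figure D4:**
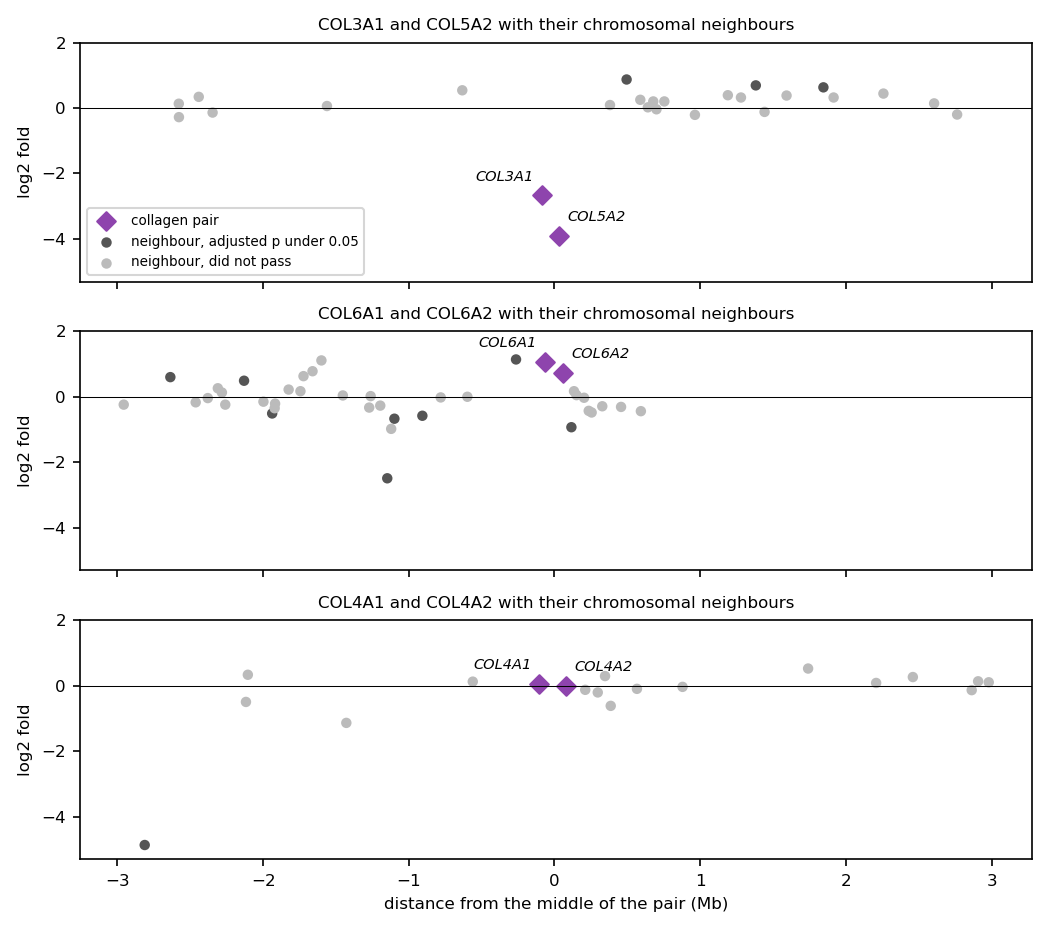
Log2 fold of protein-coding genes with at least 40 reads by distance in Mb from the middle of 3 collagen gene pairs; diamonds are the pair and dark points are neighbours with an adjusted p under 0.05. COL3A1 and COL5A2 lie at -2.67 and -3.90, and their 24 neighbours between -0.28 and 0.87.

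Genes of collagen biosynthesis other than the chains were taken from a list by role, and most of them did not pass. Of 39 genes listed under hydroxylation, folding, export, trimming and crosslinking, 5 fell, 2 rose and 32 did not pass. That is 17.9% called, beside 5.79% of all rows and 9.7% of protein-coding rows. Of the 39, 34 had at least 40 reads, among them every called gene but TLL1, which had 38. Of protein-coding rows of that depth 13.2% were called. The list was chosen with earlier results of these data known, so its share is a description and not a test. Among those that did not pass, the collagen chaperone SERPINH1 had 4347 and 4595 reads and the prolyl hydroxylase subunit P4HB had 9144 and 9208. The median log2 fold in the authors' deposited table of the 34 with at least 40 reads was -0.01. LOXL4, a lysyl oxidase that crosslinks collagen, rose from 547 to 1911 reads (log2 1.75, implied standard error 0.16, adjusted p = 5.33e-25 in the authors' deposited table). ADAMTS14, which removes the N-propeptide of procollagens, rose from 62 to 183 reads (log2 1.5 in the authors' deposited table). PLOD2, which hydroxylates lysines of the chain ends for crosslinks, fell from 1132 to 702 reads (log2 -0.75, adjusted p = 0.000312 in the authors' deposited table). ADAMTS3 fell from 103 to 41 reads, the tolloid-like protease gene TLL1 from 33 to 5, the prolyl 3-hydroxylase gene LEPREL2 from 40 to 12 and the oxidase gene LOXL3 from 69 to 34.

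Receptors for collagen fell in 4 of 11 members and rose in 1, 45.5% called, where 5.79% of all rows and 9.7% of protein-coding rows were called. Of the 11, 6 had at least 40 reads, among them every called receptor gene but ITGA10, which had 27. Of protein-coding rows of that depth 13.2% were called. This short list was chosen with earlier results of these data known, so its share is a description and not a test. ITGA2, the chain that pairs with ITGB1 to bind type I collagen, fell from 3086 to 1560 reads (log2 -1.04, implied standard error 0.15, adjusted p = 1.33e-09 in the authors' deposited table). ITGA1, of the receptor that prefers type IV collagen, fell from 1465 to 1034 reads (log2 -0.56 in the authors' deposited table). ITGA10 had 25 and 2 reads, a 13-fold lower level (counting interval 3.24 to 113). MRC2, which takes up cleaved collagen, fell from 719 to 294 reads (log2 -1.35, adjusted p = 2.09e-12 in the authors' deposited table). DDR1, a receptor tyrosine kinase for collagen, rose from 840 to 1697 reads (log2 0.96, implied standard error 0.16, adjusted p = 8.44e-08 in the authors' deposited table). ITGB1 itself had 14313 and 14053 reads and did not pass.

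Of 7 collagen-degrading enzymes 3 fell and 0 rose, 42.9% lower, where 3.24% of all rows and 5.6% of protein-coding rows were lower. Only 3 of the 7 had at least 40 reads, namely MMP1 and MMP14, which fell, and MMP2, which did not pass. Of protein-coding rows of that depth 7.32% were lower. This short list too was chosen with earlier results of these data known, so its share is a description and not a test. At an unadjusted p under 0.05 another 2, MMP2 and CTSK, were lower and none higher. The interstitial collagenase MMP1 had 411 reads with vector and 4 with LKB1 (log2 -6.65, adjusted p = 1.35e-63 in the authors' deposited table). MMP8, the neutrophil collagenase, had 30 and 0 reads, at least 10.4-fold lower against 3 reads over the group. MMP14, the membrane-bound collagenase, fell from 6209 to 4062 reads (log2 -0.67, adjusted p = 5.57e-05 in the authors' deposited table). MMP2 had 37 and 14 reads and CTSK 21 and 5, with adjusted p of 0.0526 and 0.0773 in the authors' deposited table.

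**Figure D5:**
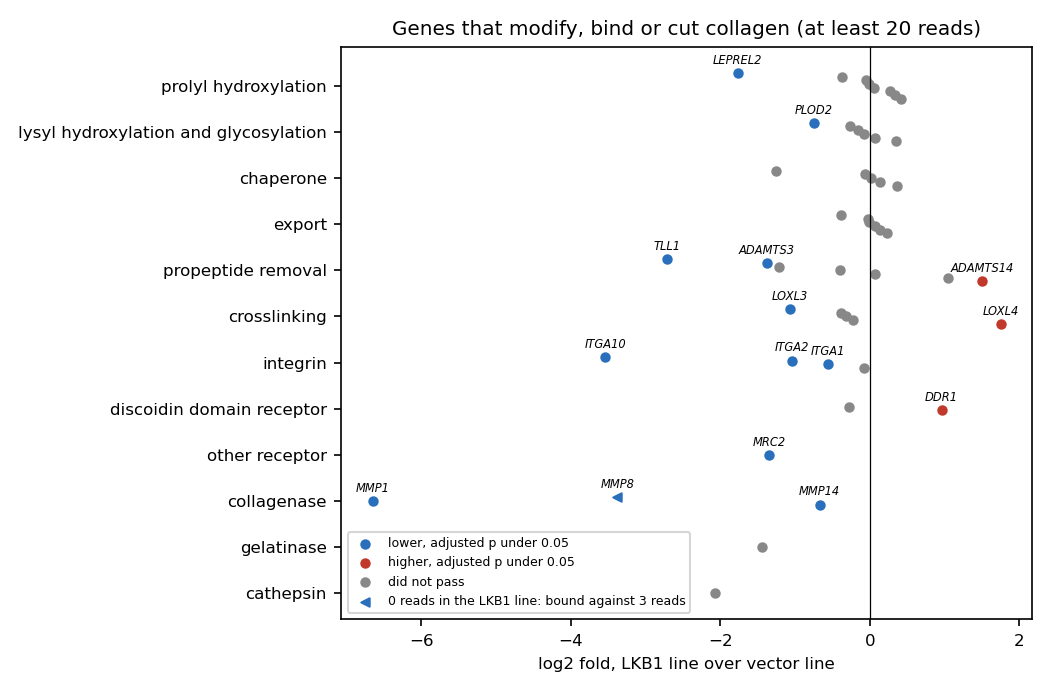
Log2 fold of the LKB1 line over the vector line for genes that modify, bind or cut collagen and have at least 20 reads, by role; colour marks the authors' call and the triangle is a bound for a gene with 0 reads in the LKB1 line. Chaperone and export genes lie between -0.38 and 0.36 apart from FKBP10 at -1.26 on 30 reads, while the integrin and collagenase genes drawn all lie below 0.

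Limits of these values follow from the table. Without values per library no member has an observed spread. The variation between libraries that the deposited p-values imply ran from 0.094 to 0.122 for the 8 called members. Over protein-coding rows of at least 200 reads and an unadjusted p under 0.05 its median was 0.104, and most lay between 0.095 and 0.14. The implied standard errors thus rest on a variation much alike across genes, and not on a spread observed for each gene. With a variation of 0.2 assumed for every gene, COL5A2, COL3A1, COL6A3 and COL6A1 still passed and COL1A1, COL5A1, COL6A2 and COL12A1 did not (adjusted p of 0.302 to 0.425).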

How the data were processed

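RNA of 4 libraries, 2 from each stable line, had been compared by the authors. Named in the submitters' processing notes, with no roles, are the build hg19, edgeR 2.6.0, TopHat2 2.0.6 and CASAVA 1.8.2. For the read counter, its strand setting, the annotation release and any filter, the answer is not given in the sources used here. The deposited table holds, per the file headers, a fold (a ratio) and its log2 form, and a p-value with its adjusted form. The adjustment was that of Benjamini and Hochberg over 34675 rows, to within 1.9e-06. Members and gene lists were chosen with earlier results of these data known.

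The deposited folds fit whole reads per line plus prior counts of 0.254868 (LKB1) and 0.245132 (vector), within 6e-10 on the log2 scale and up to 20000 reads a line. This held for 28166 of 28242 rows with reads (99.7%). With altered priors 97 of 1413 rows matched, against 1412 with the true ones. Among 555 rows of middling depth 1 matched with altered priors. These totals carry no spread between libraries.

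A gene was called at an adjusted p under 0.05. Standard errors come from the variation between libraries at which a negative binomial exact test on the totals gives the deposited p. Counting intervals are exact (Clopper-Pearson, 95%) and, like bounds against 3 reads, cover counting error only. The test and the recovery were tested on simulated data. Lengths and 3' untranslated regions are from GENCODE 29, promoters and microRNAs from RefSeq; no coordinate was moved between builds. Named were every called member, every member with at least 40 reads by value or range, up to 5 members of each list with the smallest p, STK11, and called rows overlapping a member. LEPREL2, LOXL3, FKBP10, SERPINH1, P4HB, ITGB1, SLC40A1, PCBP3, ITGB2, FAM155A and C21orf56 were chosen after their values were seen. Python 3.11.15, scipy 1.17.1 and pandas 2.3.3 were used. The alternatives are in the closing section.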

Additional observations from a re-analysis of the deposited data

How the results depend on the processing

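No paired analysis was possible because the table holds no value per library, and leaving out a replicate could not be run for the same reason. In 8 other settings the counts of lower collagen genes stayed between 3 and 5. COL5A2, COL3A1, COL6A3 and COL6A1 kept their call in 8 of 8 settings, COL5A1, COL6A2 and COL12A1 in 6, and COL1A1 in 5. Of these settings, an adjusted p under 0.1 and centring with the deposited p-values could not remove a call. Adjusting over protein-coding rows, or over rows of at least 40 reads, lowered the adjusted p of each called member. Calls were lost at a fold of at least 2 and at a variation of 0.2, and that of COL1A1 also at an adjusted p under 0.01. Every setting kept the deposited folds, moved only slightly by the centring, so no direction of a called member could reverse. At a fold of at least 2, 1 collagen gene (COL6A1) was higher in place of 4, and 0 receptor genes in place of 1. With an assumed variation of 0.2, 1 collagen gene was higher, 2 biosynthesis genes were lower in place of 5, and 0 receptor genes were higher; 866 rows passed in place of 2007. With an assumed variation of 0.1, with p-values adjusted over protein-coding rows, and at an adjusted p under 0.1, 5 degrading enzymes were lower in place of 3. With only rows of at least 40 reads, 4 biosynthesis genes were higher in place of 2, and 6 collagen genes in place of 4, COL1A2 and COL17A1 being added. At a fold of at least 2, 1032 rows passed. With at least 200 reads in place of 40, the median log2 fold of basement membrane chains was 0.00 in place of -0.35 and that of FACITs 0.66 (COL12A1 alone) in place of 0.51. Centring, on a median log2 fold of -0.011, kept the deposited p-values and so could change no call of a member. The 18 members with fewer than 40 reads had at most 20 reads, and 0 of them passed.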

Other observations

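On the deposited hg19 coordinates 16 rows outside the family overlapped a member, and 1 of them passed. Of those that did not, TCFL5 at COL9A3 had 941 and 961 reads, NT5DC1 at COL10A1 had 189 and 235, and ATG4A at COL4A6 had 173 and 172, each on the opposite strand and with more reads than the collagen gene it overlaps. The row that passed was SLC19A1, the reduced folate carrier gene, which runs opposite to COL18A1 and overlaps its end, and had 16 reads with vector and 0 with LKB1 (adjusted p = 0.00195 in the authors' deposited table). It was at least 5.55-fold lower against 3 reads over the group, while COL18A1 had 2530 and 2636 reads. How reads of the shared stretch were counted is not stated in the sources used here.

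The antisense rows COL4A2-AS1, COL4A2-AS2 and COL18A1-AS1 had 1 read each over both lines. The pseudogene COL6A4P1 had 3 and 0 reads and COL6A4P2 had 0. EMID2, today named COL26A1 and listed there as a polymorphic pseudogene, had 11 and 10 reads.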
